A study of Mus musculus with 12 samples.

Results

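The mitochondrial ribosomal protein genes were the 76 of 22630 genes in the expression files whose symbols begin with Mrpl or Mrps followed by a digit and whose mean level over the 12 tumors exceeded 1 RPKM (reads scaled to gene length and library size). By name, 47 belonged to the large subunit (Mrpl) and 29 to the small subunit (Mrps), and none of the 76 matching symbols was lost to the level limit. RNA was sequenced from bulk subcutaneous tumors grown from KCip53-1, a single pancreatic cancer cell line sorted for dsRed from a primary tumor of a mouse of genotype R26 rtTa/rtTa that carried the TREp53 R270H transgene and Ptf1a-Cre. Ptf1a-Cre acts in the pancreatic epithelium, and doxycycline (dox) switches on p53 R270H together with dsRed. The hosts were NSG mice, which lack an adaptive immune system, so every tumor also held mouse host cells.

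The hosts of the 4 no-dox tumors were never given dox. The 4 plus-dox tumors had dox at 0.2 g/l in the drinking water for 36 days. The 4 off-dox tumors had dox for 33 days and were then left without it for 3 days. The study kept its KCip53 lines on dox in culture, so the implanted cells of every group had met dox before. All 12 tumors carried the same inducible cassette, and all came from the same line. No group had dox without the cassette, so effects of dox itself and of the induced p53 R270H cannot be told apart. The study states that wild-type p53 was lost in its KCip53 lines and that a few dsRed-positive cells stayed in off-dox tumors. Each host was implanted with a pair of tumors and the labels do not tie tumors to mice, so the 4 tumors of a group may come from as few as 2 mice. P-values treat the tumors as independent and are too small to the extent that tumors of 1 mouse resemble each other. Counted reads per tumor ranged from 19845923 to 33137609, and members took 0.295% to 0.390% of them. Total Trp53 was 40.1 to 57.4 RPKM in no-dox, 40.4 to 56.0 in the plus-dox group and 41.6 to 45.4 in off-dox tumors, so its level did not separate the groups and does not check the labels.

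Mitochondria keep their own ribosome, which translates the few proteins encoded in mitochondrial DNA, all of them subunits of the oxidative phosphorylation machinery. Its RNA parts are made in the organelle, whereas every one of its proteins is encoded in the nucleus, made in the cytosol and imported. Some of these proteins have bacterial counterparts and others exist only in mitochondria. The large subunit forms peptide bonds and anchors the ribosome to the inner membrane, and the small subunit binds the messenger RNA and decodes it. A few names mislead: Mrps30 and Mrps18a sit in the large subunit by structure, and Mrps36 is now assigned to the 2-oxoglutarate dehydrogenase complex rather than to the ribosome core.

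Because transcription of such nuclear genes is commonly described through NRF1, ETS-family and YY1 binding letters near their starts, the upstream bases of 5 members that the comparisons turn on are shown first. They are RefSeq promoters of build GRCm38.p6, the 200 bases before the annotated start, written 5′ to 3′ on the gene's strand, with capitals marking NRF1 or ETS letters. Mrps5 (chr2:127587226-127587425), Mrpl9 (chr3:94443136-94443335), Mrpl10 (chr11:97041382-97041581), Mrps27 (chr13:99344586-99344785) and Mrpl12 (chr11:120484437-120484636) all lie on the plus strand.
Mrps5: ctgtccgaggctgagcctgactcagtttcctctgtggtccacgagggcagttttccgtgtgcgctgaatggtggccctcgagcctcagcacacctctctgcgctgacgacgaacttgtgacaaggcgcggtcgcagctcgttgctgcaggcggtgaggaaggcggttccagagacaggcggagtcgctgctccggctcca
Mrpl9: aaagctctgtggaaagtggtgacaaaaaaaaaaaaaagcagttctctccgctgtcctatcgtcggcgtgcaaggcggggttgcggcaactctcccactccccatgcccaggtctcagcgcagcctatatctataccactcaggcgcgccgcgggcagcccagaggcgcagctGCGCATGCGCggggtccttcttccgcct
Mrpl10: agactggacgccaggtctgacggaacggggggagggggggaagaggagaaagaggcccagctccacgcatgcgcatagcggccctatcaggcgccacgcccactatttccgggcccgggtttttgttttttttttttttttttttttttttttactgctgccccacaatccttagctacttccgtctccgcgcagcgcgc
Mrps27: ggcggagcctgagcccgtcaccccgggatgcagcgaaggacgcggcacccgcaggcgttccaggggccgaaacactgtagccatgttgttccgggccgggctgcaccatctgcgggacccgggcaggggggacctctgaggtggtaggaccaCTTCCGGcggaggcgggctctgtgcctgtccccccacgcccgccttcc
Mrpl12: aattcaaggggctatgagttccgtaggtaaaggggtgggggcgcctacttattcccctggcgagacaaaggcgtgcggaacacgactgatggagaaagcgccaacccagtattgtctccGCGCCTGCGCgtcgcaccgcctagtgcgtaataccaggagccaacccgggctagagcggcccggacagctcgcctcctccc

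Of the 76 members, 67 matched the RefSeq promoter table, with 73 promoters of 300 bases each (250 before and 50 after the start). Both strands were searched for GCGCA and GCGC with any 1 base between them (NRF1), CCGGAAG (ETS), AAGATGGC (YY1) and, for contrast, CACGTG (E-box). NRF1 letters stood in 16.4% of member promoters, against 9.52% of the 11462 promoters of genes over 1 RPKM and 4.60% of all 32851 promoters. ETS letters stood in 32.9% of member promoters, against 16.8% and 8.86%. YY1 letters stood in 16.4%, against 4.2% and 2.75%, whereas E-box letters were about as frequent in promoters of members (9.59%) as of genes over 1 RPKM (9.84%). These shares count promoters, and Mrpl2 gave several of those with E-box letters. By gene, E-box letters were found for 5 of 67 members and 1057 of 8995 genes over 1 RPKM. Of the 67 matched members, 41 held NRF1, ETS or YY1 letters. In no member promoter (0 of 73) did the ETS letters run into the YY1 letters, so that the last ETS letters are also the first YY1 letters. This was found in only 1 of 11462 promoters of genes over 1 RPKM (0.00872%), so the 0 does not set the members apart. Other arrangements of both motifs were not searched. The Mrps5 and Mrpl10 promoters, printed because both genes passed the test described further on, held none of the 4 motifs, so that promoters with and without these letters occur among the members that fell. Mrps27 also held YY1 letters after its start.

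The members were expressed well above the typical gene. The median of their mean levels was 31.9 RPKM, against 10.4 RPKM for the 12694 tested genes over 1 RPKM, and the subunits were alike with medians of 32.3 RPKM for the large and 30.9 RPKM for the small. Their gene models were short, with a median exonic length of 1047 bp against 2728.5 bp. The highest large-subunit levels were those of Mrpl52 (mean 147 RPKM), Mrpl33 (137 RPKM), Mrpl13 (106 RPKM), Mrpl12 (97.6 RPKM) and Mrpl20 (80.6 RPKM). In the small subunit they were those of Mrps16 (90.9 RPKM), Mrps21 (78.9 RPKM), Mrps18c (61.6 RPKM), Mrps33 (49.9 RPKM) and Mrps35 (43.7 RPKM). The lowest were Mrpl35 at 6.27 and Mrpl1 at 6.76 RPKM, both bacterial-type proteins of the large subunit. Messenger RNA levels for parts of 1 complex thus spanned 6.27 to 147 RPKM, and within-group SDs (members' median 0.18 on the log2 CPM scale, counts scaled to library size) were small beside that span.

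Compared with no-dox tumors, both subunits averaged slightly lower with dox and after its removal, by about the same amount. In no-dox tumors 1 to 4, the summed level of the 47 large-subunit genes was 2221, 2066, 2345 and 1859 RPKM. In plus-dox tumors it was 2182, 1788, 1734 and 1813 RPKM, and in off-dox tumors 1961, 1654, 2116 and 1730 RPKM. The groups overlapped, because no-dox tumor 4 was low and plus-dox tumor 1 and off-dox tumor 3 were high. For the 29 small-subunit genes the sums were 1123, 1042, 1183 and 916 RPKM in no-dox tumors, 1059, 881, 846 and 883 RPKM in plus-dox tumors, and 960, 800, 995 and 907 RPKM in off-dox tumors. The same tumors stood high and low as for the large subunit. Means were 2123 ± 209, 1880 ± 204 and 1865 ± 212 RPKM for the large subunit and 1066 ± 116, 917 ± 96.2 and 916 ± 85.1 RPKM for the small subunit (SD, n = 4; no-dox, plus-dox, off-dox). In bulk tumors, fewer cells of a type and less RNA per cell cannot be told apart.

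**Figure D1:**
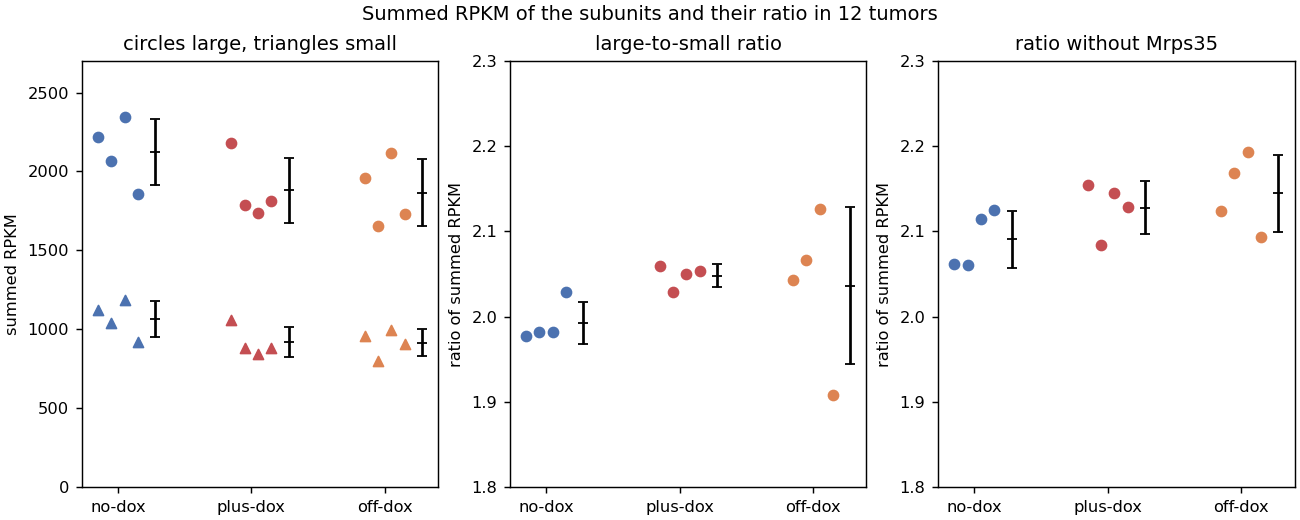
Summed RPKM of large-subunit (circles) and small-subunit (triangles) genes in each tumor, left, and the ratio of the sums with all members, middle, and without Mrps35, right; bars give mean and SD of 4 tumors, and the ratio axes do not start at 0. Both sums averaged lower with dox and after its removal (large 2123, 1880 and 1865 RPKM), and the off-dox spread of the ratio narrowed without Mrps35 (SD 0.0923 to 0.0449).

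The ratio of the large to the small sum stayed near 2 in every tumor. It was 1.98, 1.98, 1.98 and 2.03 in no-dox tumors, 2.06, 2.03, 2.05 and 2.05 in plus-dox tumors, and 2.04, 2.07, 2.13 and 1.91 in off-dox tumors. Plus-dox tumors (2.05 ± 0.0133) were thus 0.04 above no-dox tumors (1.99 ± 0.0245) on the log2 scale, with no-dox tumor 4 reaching the lowest plus-dox value, and off-dox tumors (2.04 ± 0.0923) spanned both. With Mrps30 and Mrps18a counted in the large subunit and Mrps36 left out, the means were 2.28, 2.34 and 2.32. By that count the plus-dox tumors (2.33 to 2.36) lay just above the no-dox tumors (2.26 to 2.32). The off-dox tumors (2.17 to 2.43) again spanned both. Off-dox tumor 4 was the lowest of all, and Mrps35 was at its highest there. Without Mrps35 its ratio was 2.09, still the lowest of its group but within the range of the no-dox tumors, and the group means became 2.09 ± 0.0338, 2.13 ± 0.0313 and 2.14 ± 0.0449, with all 3 groups overlapping. No p is given for these sums, since they are scores over chosen genes.

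In plus-dox against no-dox tumors, 75 of 76 members had a fold change below 0, where 48.6% of all 17561 genes tested and 54.7% of genes over 1 RPKM did. The median log2 fold change was -0.20 for the 47 large-subunit and -0.21 for the 29 small-subunit genes, against 0.01 for all genes. No member passed an adjusted p of 0.1 in edgeR's quasi-likelihood test (percent of all genes called: 0), nor in DESeq2, which called 264 of 17485 genes (1.51%). At an unadjusted p under 0.05, 17 members were lower (10 large, 7 small) and 0 higher, against 5.67% and 8% of all genes and, for lower genes over 1 RPKM, 6.96%. In 8 members every plus-dox tumor lay below every no-dox tumor on the normalized log2 CPM scale, against 4.49% of all genes and 5.77% of genes over 1 RPKM: Mrpl4, Mrpl9, Mrpl35, Mrpl43, Mrpl44, Mrps5, Mrps30 and Mrps31. In 0 members did every plus-dox tumor lie above (background 4.37%). The difference was thus small, shared in sign by nearly all members and not called for any single one. Without no-dox tumor 3, the tumor with the highest sums, the medians were -0.12 for the large and -0.15 for the small subunit and 67 members stayed below 0.

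Mrps27, a small-subunit protein of the pentatricopeptide repeat type (mm9 chr13:100114741-100185516), had the smallest p of any member here. Its level was 17.4, 17.2, 18.3 and 13.7 RPKM in no-dox tumors and 15.1, 11.2, 10.9 and 13.0 RPKM in plus-dox tumors. One plus-dox tumor exceeded the lowest no-dox tumor, so the groups overlapped. The log2 fold change was -0.40 (SE 0.12, edgeR adjusted p = 0.322), and in off-dox tumors it was -0.39, where the values were 13.1, 11.4, 13.4 and 12.0 RPKM and none reached the no-dox range. The Mrps27 gene overlaps 6430562O15Rik on the other strand, which was at 0.391 RPKM.

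Mrpl44, which carries a ribonuclease III-like fold near the exit of the peptide tunnel, stood at 24.3, 22.8, 22.3 and 21.0 RPKM in no-dox and 21.4, 13.7, 17.0 and 17.8 RPKM in plus-dox tumors. Plus-dox tumor 1 just exceeded the lowest no-dox tumor in RPKM, though not in normalized log2 CPM, and plus-dox tumor 2 was lowest. Its log2 fold change was -0.36 (SE 0.12, edgeR adjusted p = 0.326). Mrps30, a mitochondria-specific protein of the large subunit by structure, was at 24.7, 22.2, 26.9 and 19.8 RPKM against 19.4, 19.3, 18.3 and 18.4 RPKM, without overlap. Its log2 fold change was -0.30 (SE 0.11, edgeR adjusted p = 0.326). Mrpl40 and Mrpl37, both mitochondria-specific large-subunit proteins, had values of -0.32 (SE 0.12) and -0.30 (SE 0.11), with groups that overlapped. The lowest fold change belonged to Mrps35 (-0.55, SE 0.34), whose single tumors differed widely, and the only one above 0 to Mrps2 (0.05, SE 0.09).

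**Figure D2:**
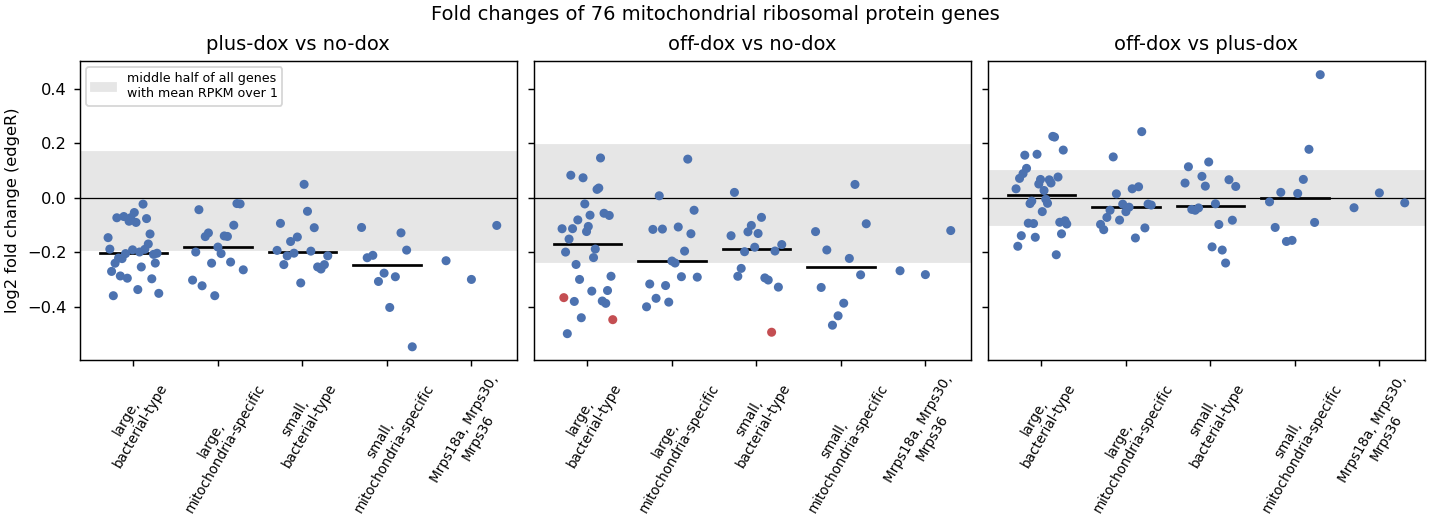
Log2 fold change of each of the 76 members (points) in 3 comparisons. Members are grouped by subunit and listed class (bacterial-type or mitochondria-specific), with Mrps18a, Mrps30 and Mrps36 apart. Black lines mark medians, grey bands the middle 50% of genes over 1 RPKM, and red points an edgeR adjusted p under 0.1. In both comparisons with no-dox tumors nearly all points lie below 0, 3 of them red in off-dox tumors, whereas the points scatter around 0 for off-dox against plus-dox.

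In off-dox against no-dox tumors, 67 of 76 members were below 0, where 49.3% of all genes were, and the medians were again -0.20 for both subunits against 0.01 for all genes. This comparison shares its no-dox tumors with the one before, so both sets of values rest on the same controls. By the study's limits (adjusted p under 0.1 and a change over 1.5-fold) no member was called with edgeR, against 1.34% of all genes. No member changed by 1.5-fold (furthest from 0, Mrpl12 at a log2 fold change of -0.50), so the fold limit alone gave this result. At an adjusted p under 0.1 alone, 3 members fell (Mrps5, Mrpl9 and Mrpl10; background 1.38%, and 1.87% of genes over 1 RPKM) and 0 rose (background 2.08%). At an unadjusted p under 0.05, 24 members were lower (15 large, 9 small; background 9.48%, and 12.2% of genes over 1 RPKM) and 0 higher (background 10.9%). In 15 members all off-dox tumors lay below all no-dox tumors (background 5.69%, and 7.49% of genes over 1 RPKM), 11 of the large and 4 of the small subunit, and in 0 above (background 5.85%). The count of 3 depended on the test and the tumors. DESeq2 gave 17, or 22.4% of members where it called 11% of all genes in either direction. The fit of these 8 tumors alone gave 0 and called 3 genes in all. Dropping single tumors gave 0 to 12 members, with 0% to 10.1% of all genes called. Without no-dox tumor 3 the medians were -0.11 and -0.19, and 61 members stayed below 0.

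Mrps5, a bacterial-type small-subunit protein at the entry of the messenger RNA channel (mm9 chr2:127413162-127429722), showed the clearest decrease. It was at 23.0, 23.7, 19.9 and 20.8 RPKM in no-dox tumors, at 18.4, 18.8, 17.0 and 18.6 RPKM in plus-dox tumors and at 17.3, 14.0, 13.2 and 16.1 RPKM in off-dox tumors. All plus-dox tumors lay below all no-dox tumors, and 3 of the 4 off-dox tumors lay below all plus-dox tumors. The log2 fold change was -0.49 in off-dox (SE 0.10, edgeR adjusted p = 0.0819) and -0.25 in plus-dox tumors (SE 0.10, edgeR adjusted p = 0.336). Off-dox against plus-dox it was -0.24 (SE 0.10), the smallest p of all members in that comparison, although the edgeR adjusted p was 1.

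Mrpl9, a large-subunit protein with a bacterial counterpart (mm9 chr3:94247258-94252630), was at 44.1, 42.2, 40.1 and 39.4 RPKM in no-dox, 38.4, 28.6, 28.6 and 33.9 RPKM in the plus-dox group and 35.6, 25.7, 29.4 and 28.5 RPKM in off-dox tumors. No tumor that had received dox reached the no-dox range. Its log2 fold change was -0.45 in off-dox (SE 0.11, edgeR adjusted p = 0.0884) and -0.35 in plus-dox tumors (SE 0.11, edgeR adjusted p = 0.322). Mrpl10 (mm9 chr11:96902900-96910527) forms the base of the stalk that calls translation factors to the ribosome. It was at 44.3, 39.2, 42.9 and 35.5 RPKM in no-dox, 37.5, 37.3, 31.7 and 34.5 RPKM in the plus-dox group and 31.1, 27.0, 30.6 and 34.1 RPKM in off-dox tumors. The off-dox values lay below all no-dox values, the plus-dox values did not, and the log2 fold changes were -0.37 (SE 0.10, edgeR adjusted p = 0.0994) and -0.19 (SE 0.10, edgeR adjusted p = 0.418).

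Mrpl12, the stalk protein that Mrpl10 holds, had the lowest fitted fold change in off-dox tumors, -0.50 (SE 0.16, edgeR adjusted p = 0.137). Its levels were 124, 122, 139 and 89.6 RPKM in no-dox and 97.4, 65.2, 79.5 and 86.4 RPKM in off-dox tumors, and they overlapped at no-dox tumor 4. Over the 5 stalk genes listed, the median log2 fold change was -0.26 in the plus-dox group and -0.29 in off-dox tumors, and over 6 genes around the exit tunnel it was -0.19 and -0.11. Mrpl37 (-0.40, SE 0.11), Mrpl43 (-0.32, SE 0.09) and Mrps25 (-0.47, SE 0.13) had edgeR adjusted p values of 0.105, 0.108 and 0.108 in off-dox tumors. Mrpl43 contains the small RNA gene Snora19 on its strand, listed at 0 RPKM. The 9 members above 0 in this comparison included Mrpl33 (0.15, SE 0.19) and Mrpl51 (0.14, SE 0.11), the highest.

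**Figure D3:**
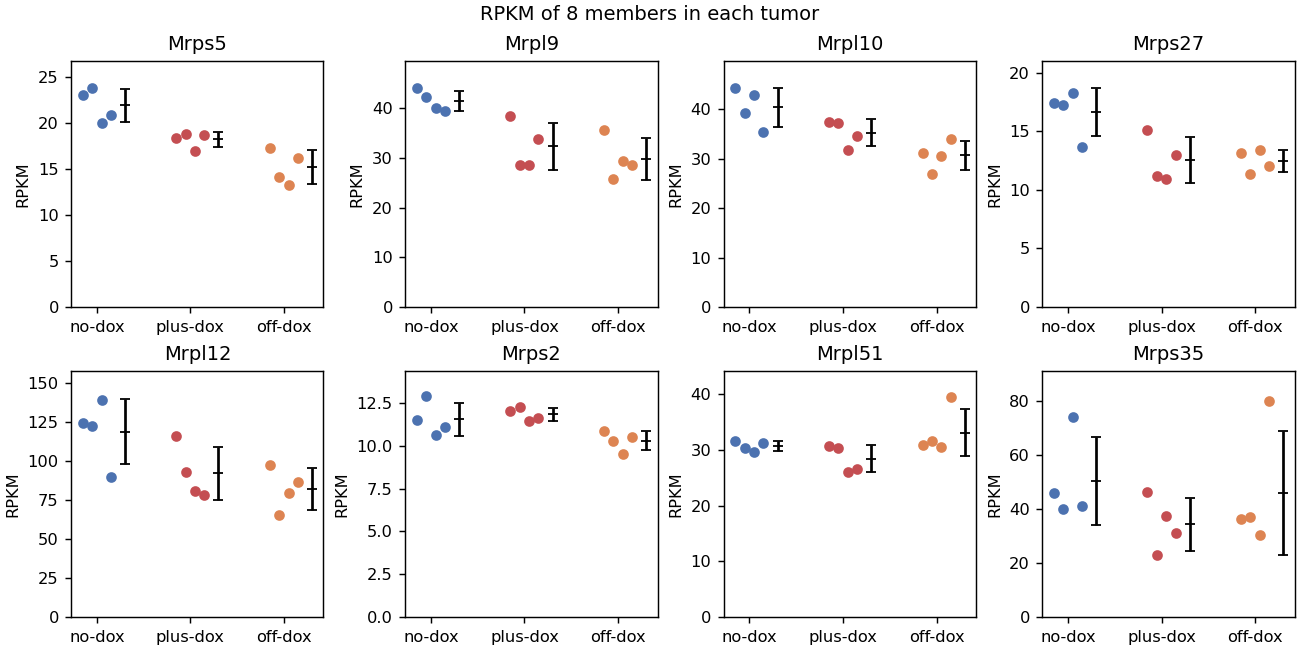
RPKM of 8 members in each of the 12 tumors, by group, with mean and SD of 4 tumors at the right of each group; all vertical axes start at 0. Mrps5 and Mrpl9 lie lower in every tumor that had dox, Mrps2 is lowest in off-dox tumors, and off-dox tumor 4 stands apart for Mrpl51 (39.5 RPKM) and Mrps35 (80.1 RPKM).

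After 3 days without dox the members stood near their plus-dox levels. The median off-dox against plus-dox log2 fold change was -0.02 for each subunit, against -0.00051 for all genes, and 43 of 76 members were below 0 (background 50.1%). No member passed an adjusted p of 0.1 with edgeR or with DESeq2, as no gene did with edgeR (background 0). At an unadjusted p under 0.05, Mrps5 was lower (background 1.81%) and Mrpl51 higher (background 1.25%). Mrps5 and Mrps2 had all off-dox tumors below all plus-dox tumors, against 0.752% of all genes, and 0 members lay wholly above (background 0.649%); this again is on the log2 CPM scale. Mrps2, a bacterial-type small-subunit protein, stood at 12.0, 12.2, 11.4 and 11.6 RPKM in the plus-dox group and 10.9, 10.3, 9.54 and 10.5 RPKM in off-dox tumors, after 11.5, 12.9, 10.6 and 11.1 RPKM in no-dox tumors. Its log2 fold change was -0.18 (SE 0.09, edgeR adjusted p = 1). Mrpl51, a mitochondria-specific large-subunit protein, was at 31.0, 31.5, 30.5 and 39.5 RPKM in off-dox and 30.8, 30.3, 26.1 and 26.6 RPKM in plus-dox tumors, and its value of 0.24 (SE 0.11) was 0.13 without off-dox tumor 4. The direction of the subunit medians changed with single tumors, for example to 0.03 and 0.05 without off-dox tumor 2.

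Bacterial-type and mitochondria-specific proteins had similar medians. The 30 bacterial-type genes of the large subunit had medians of -0.20 in the plus-dox group and -0.17 in off-dox tumors, and the 17 mitochondria-specific ones -0.18 and -0.23. In the small subunit the 16 bacterial-type genes had -0.20 and -0.19, and the 10 mitochondria-specific genes -0.25 and -0.25. The Mrps18 paralogs derive from 1 bacterial protein and occupy different places in the ribosome. Of them, Mrps18c was listed as bacterial-type and Mrps18b as mitochondria-specific, while Mrps18a was in neither class. Mrps18a was at 48.1 ± 5.52, 40.7 ± 3.72 and 39.1 ± 2.87 RPKM, Mrps18b at 32.1 ± 1.43, 29.5 ± 1.07 and 28.8 ± 1.37 RPKM, and Mrps18c at 69.3 ± 9.60, 55.5 ± 9.32 and 59.9 ± 9.18 RPKM (SD, n = 4; no-dox, plus-dox, off-dox). None passed the adjusted limit. Mrps12, which lines the decoding centre, had log2 fold changes of -0.25 (SE 0.14) and -0.29 (SE 0.14), and Mrps36 of -0.10 (SE 0.17) and -0.12 (SE 0.17).

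Levels of the members varied together from tumor to tumor. Over the 12 tumors, the median correlation between pairs of members was 0.55 (2850 pairs), against 0.00031 for pairs of genes over 1 RPKM, and it was 0.48 for deviations from the group means. Large with large, small with small and large with small gave 0.52, 0.60 and 0.56. The points share libraries and their composition, and no p is attached. Relative to the 12-tumor mean, no-dox tumor 3 was highest (0.30 on the log2 CPM scale, averaged over members) and off-dox tumor 2 lowest (-0.23). Mrpl51 and Mrps2 followed the others least, with median correlations of -0.06 and -0.02, next to Mrpl39 (0.10) and Mrpl35 (0.11). The genes outside the family most like the member mean were Psmb6 (r = 0.98), Psmb5 (r = 0.97), both catalytic subunits of the proteasome, and Pih1d1 (r = 0.97), over 12 tumors.

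**Figure D4:**
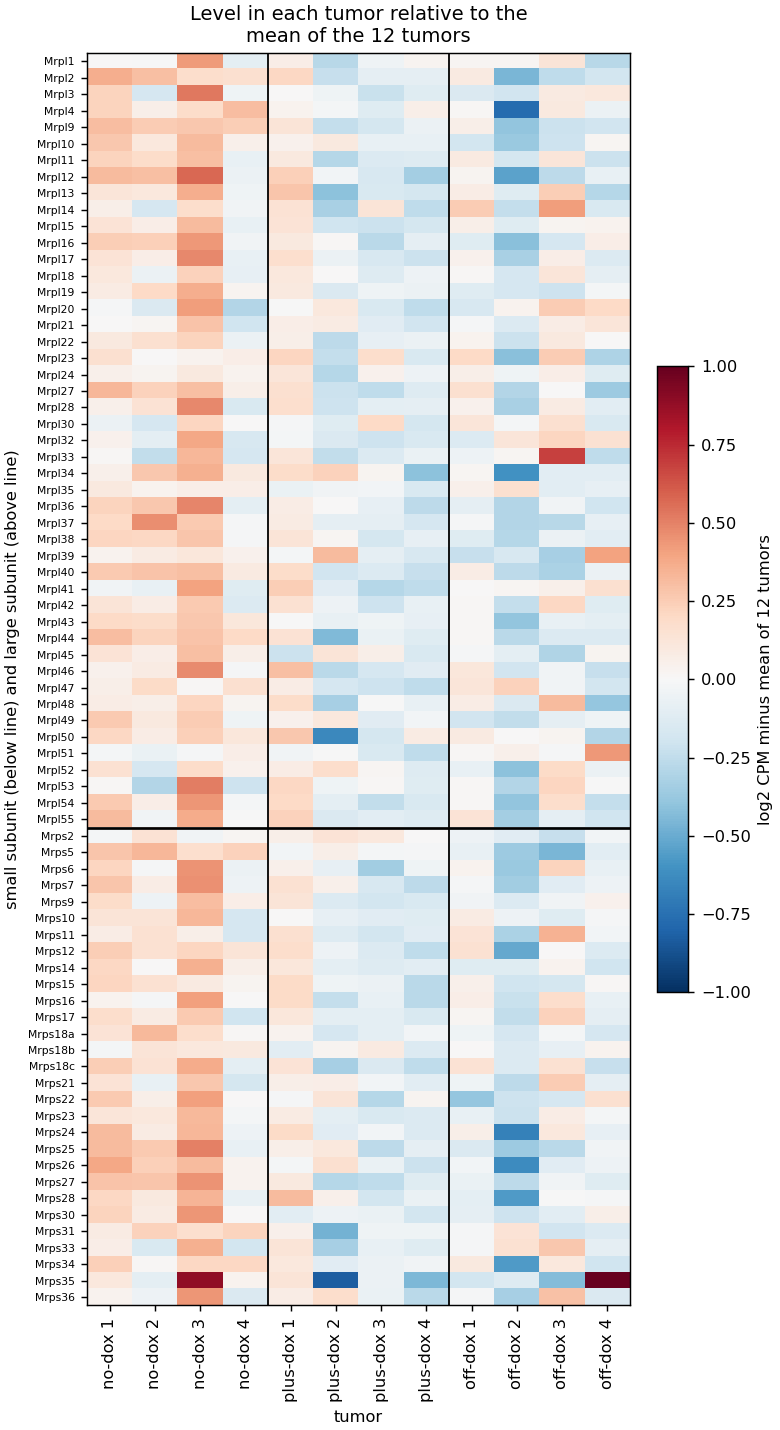
Level of each member (rows, large subunit above and small below the line) in each tumor (columns), as log2 CPM minus the mean of the 12 tumors, with the colour scale ending at -1 and 1. No-dox tumors 1 to 3 are red and off-dox tumor 2 is blue for most genes, no-dox tumor 4 lies near 0, and Mrps35 departs from the other rows in no-dox tumor 3, plus-dox tumor 2 and off-dox tumor 4.

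Other parts of the mitochondrial translation machinery also had medians below 0. They were nearer 0 than the members' -0.20 in the plus-dox group and close to the members' -0.20 in off-dox tumors. For 7 ribosome subunits under other names, medians were -0.19 in the plus-dox group and -0.18 in off-dox tumors, and 1 fell in off-dox tumors at an adjusted p under 0.1, Ict1, a peptide release factor built into the large subunit (-0.47, SE 0.12, edgeR adjusted p = 0.0933). Among 11 translation factors (medians -0.14 and -0.18), 2 fell in off-dox tumors: the elongation factor Tsfm (-0.47, SE 0.11, edgeR adjusted p = 0.0875) and the initiation factor Mtif3 (-0.44, SE 0.11, edgeR adjusted p = 0.0897). Of 19 assembly and ribosomal RNA modification genes (medians -0.14 and -0.21), 1 fell, the methyltransferase Ftsj2 (-0.56, SE 0.14, edgeR adjusted p = 0.092). Of 17 mitochondrial tRNA synthetases (-0.11 and -0.19), 1 fell, Fars2 (-0.52, SE 0.13, edgeR adjusted p = 0.0897). These calls stand against 1.38% of all genes lower and 2.08% higher, and they share the weakness of the member calls: 0 genes passed with the replicate block or without no-dox tumor 1, 2 or 4, and 3 passed with the 8 tumors alone. None of these lists had a member past the adjusted limit in plus-dox tumors, where edgeR called 0 genes in all.

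The 74 oxidative phosphorylation subunits encoded in the nucleus had medians of -0.20 and -0.22, with 72 and 68 below 0, and 5 fell in off-dox tumors, against the same background of 1.38%, among them the complex I subunit Ndufv1 (-0.55, SE 0.10, edgeR adjusted p = 0.0786). Genes for mitochondrial DNA transcription and upkeep had medians of -0.09 and -0.07 and a single call, upward. Of 8 measured, 1 rose in off-dox tumors (background 2.08%), the DNA polymerase Polg (0.38, SE 0.09, edgeR adjusted p = 0.0832). The Polg call and the 5 before it share the weakness of the member calls. The 7 regulators over 1 RPKM had medians of -0.01 and -0.06, with 0 past the adjusted limit by edgeR. At an unadjusted p under 0.05, 1 was higher in each comparison with no-dox tumors (background 8% and 10.9% of all genes). It was Pprc1, a coactivator of the PGC-1 family (0.35, SE 0.10, and 0.31, SE 0.10). The 80 cytosolic ribosomal proteins over 1 RPKM had medians of -0.04 and -0.01, with 59 and 44 below 0 and 0 past the adjusted limit. Whether these lists differ from the members was not tested.

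Some tissue markers also differed between groups. The summed level of 10 epithelial markers was 2325 to 3192 RPKM in no-dox, 1365 to 2078 RPKM in the plus-dox group and 1089 to 2717 RPKM in off-dox tumors, so that the plus-dox range lay below the no-dox range in summed RPKM. As a mean deviation in log2 CPM over the same markers, the ranges overlapped (0.11 to 1.14 in no-dox, -2.50 to 0.65 in plus-dox tumors). Off-dox tumor 3 had the lowest epithelial sum (1089 RPKM) and the highest large-subunit sum of its group (2116 RPKM). No-dox tumor 4 had a high epithelial sum (2975 RPKM) and the lowest large-subunit sum of its group (1859 RPKM). In other tumors both sums were high, as in no-dox tumor 3 (2505 and 2345 RPKM), or low, as in off-dox tumor 4 (1571 and 1730 RPKM). How marker and member sums vary together was not tested. For 8 fibroblast markers the ranges were 1120 to 2050, 1633 to 3106 and 1272 to 1528 RPKM, for 8 skeletal muscle markers 10.7 to 188, 146 to 472 and 12.2 to 1262 RPKM, and for 6 macrophage markers 1448 to 2218, 1746 to 2011 and 1572 to 2799 RPKM. For 8 genes of dividing cells they were 77.7 to 156, 73.0 to 168 and 85.3 to 119 RPKM. For 4 neutrophil markers they were 22.8 to 34.6, 33.5 to 56.6 and 23.5 to 49.2 RPKM, for 5 endothelial markers 23.0 to 36.4, 31.0 to 110 and 26.4 to 44.5 RPKM, and for 6 adipocyte markers 13.3 to 512, 24.5 to 369 and 29.3 to 194 RPKM. By mean deviation in log2 CPM, plus-dox tumors lay above all no-dox tumors for neutrophil (-0.08 to 0.47 against -0.66 to -0.29) and muscle markers (0.21 to 1.96 against -3.94 to 0.13). No marker in these lists was at 0 in all tumors. Mapped reads per tumor were inferred from the deposited counts, RPKM values and gene lengths. The inferred share of mapped reads on genes was 88.4% to 89.4% in no-dox, 82.2% to 87.1% in plus-dox and 81.1% to 85.8% in off-dox tumors. Neither range overlapped that of no-dox tumors. The part of cell makeup and of this share in the lower member levels was not tested.

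Mrps35, a mitochondria-specific small-subunit protein (mm9 chr6:146991292-147019424), varied most of all members (within-group SD 0.52 on the log2 CPM scale, against a median of 0.18). It was at 46.1, 39.9, 74.4 and 41.2 RPKM in no-dox, 46.3, 23.0, 37.4 and 31.1 RPKM in the plus-dox group and 36.3, 37.3, 30.5 and 80.1 RPKM in off-dox tumors. No-dox tumor 3 and off-dox tumor 4 were high, plus-dox tumor 2 was low, and the groups overlapped. Relative to their 12-tumor medians, 10 of 10 neighbours were higher in no-dox tumor 3 (median 0.72 in log2 CPM), 9 of 10 in off-dox tumor 4 (median 1.35) and 2 of 10 in plus-dox tumor 2 (median -0.33). Mrps35 itself was at 0.97, 1.11 and -0.74 there. These tumors are the extremes of Mrps35 itself. In off-dox tumor 2, 8 of 10 neighbours were also higher (median 0.48) while Mrps35 was at -0.05. The cause of these shifts was not tested.

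**Figure D5:**
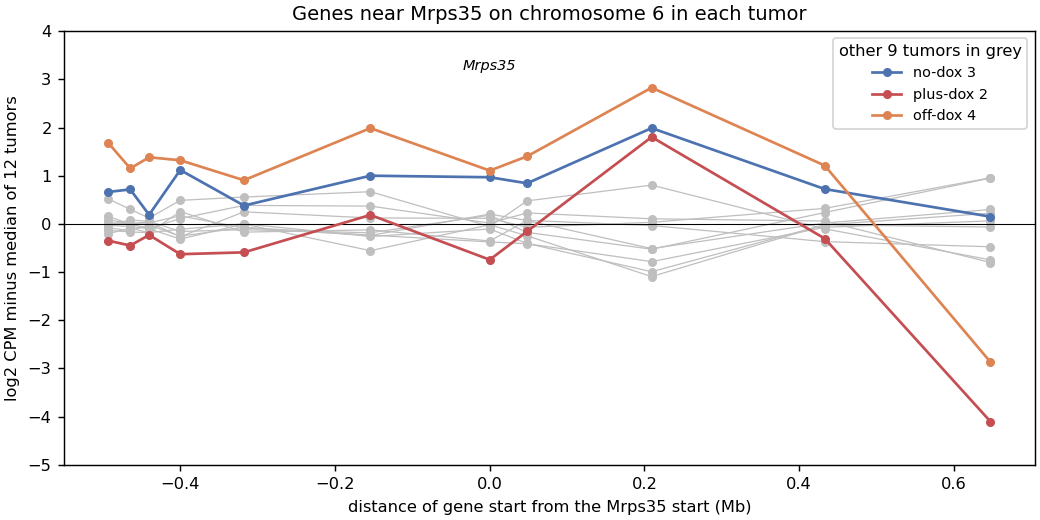
Log2 CPM minus the 12-tumor median for Mrps35 and the 10 genes within 1 Mb of it, against distance of the gene start from the Mrps35 start in Mb; 3 tumors are coloured and the other 9 grey. Off-dox tumor 4 and no-dox tumor 3 lie above 0 at nearly all genes, whereas plus-dox tumor 2 is at -0.74 for Mrps35 and below 0 for 8 of its 10 neighbours.

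The other 6 members on chromosome 6 did not all share this. In off-dox tumor 4, Mrpl51 was 0.52 above the median deviation of all members, with 22 of its 32 neighbours within 1 Mb above their own medians (median 0.46), while Mrps33, Mrpl35, Mrpl19, Mrpl53 and Mrps25 lay between -0.02 and 0.09. Members elsewhere that left the family in 1 tumor did so with neighbours that moved less. Mrpl33 reached 217 RPKM in off-dox tumor 3 against 107 to 136 RPKM in the other off-dox tumors, 0.74 above the members there, with a neighbour median of -0.08. That tumor also had the highest skeletal muscle sum, 1262 RPKM, while off-dox tumor 2 had 776 RPKM with Mrpl33 at 136 RPKM. Mrpl4 was at 11.3 RPKM in off-dox tumor 2 against 17.9 to 20.9 RPKM in the others (neighbour median -0.23). Mrpl50 was at 19.9 RPKM in plus-dox tumor 2 against 26.4 to 39.0 RPKM (neighbour median -0.22). The part of muscle RNA in the Mrpl33 value was not tested.

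The members were spread over 17 chromosomes, most of them on chromosome 11 with 10, chromosome 17 with 8 and chromosome 6 with 7. In the mm9 gene models of the files, 26 of 76 members (34.2%) had a neighbour starting in the opposite direction within 1000 bp, against 14.1% of the 12700 genes over 1 RPKM. One such pair joins both subunits: Mrpl46 and Mrps11 are 41 bp apart on chromosome 7, and the GENCODE M1 models of the same build overlap there by 413 bp, with r = 0.53 between their levels. Mrps12 lies 186 bp from Sars2, the mitochondrial seryl-tRNA synthetase (r = 0.69), Mrpl47 lies 307 bp from the complex I subunit Ndufb5 (r = 0.29), and Mrpl43 lies 115 bp from Peo1, the mitochondrial DNA helicase (r = 0.54). These partners are named for their mitochondrial roles. Over all such neighbours, r ran from -0.65 (Tmem63b, 153 bp from Mrpl14) to 0.74 (Zfp189, 133 bp from Mrpl50). The median r between pairs of members was 0.55. These correlations are over 12 tumors and describe them only.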

How the data were processed

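RNA-seq libraries of 12 mouse tumors (3 groups of 4, grouped by the labels) were read as deposited. The authors deposited, per gene, an expected count and an RPKM value for each tumor. Per the labels' processing notes, CASAVA 1.8.2, Bowtie 0.12.8, TopHat 1.4.1 and bedtools 2.16.2 were used with mm9; hg19 is also listed. Reads shared by near-identical gene copies may be split or lost, and the study's libraries were poly(A)-selected and not strand-specific, so reads of genes that overlap on opposite strands cannot be told apart.

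Deposited expected counts were rounded to whole numbers and fitted over all 12 tumors with edgeR 4.0.16 (TMM, quasi-likelihood test, genes with at least 10 counts in total, 17561 genes, Benjamini-Hochberg over all), in R 4.3.3. DESeq2 1.42.0 was an alternative. The scripts were tested on simulated data with 200 changed genes. Log2 CPM used a prior count of 2. The study's call limits were an adjusted p under 0.1, over 1.5-fold, a mean over 0.25 RPKM and a length over 250 bp. Members and lists were chosen with earlier results of these data known. Genes named were, per comparison, the 6 members with the smallest p and all past an adjusted p of 0.1, the 5 most and the 2 least expressed, members with set roles, up to 2 per list, and the 3 genes most like the member mean. Alternatives were other scalings, filters, samples, member limits and a replicate block. Replicate numbers were not used to pair the tumors in the main fit. One further allele of the line is not reported here.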

Additional observations from a re-analysis of the deposited data

Results flagged for a closer look

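Single tumors far from the other 3 of their group were looked for in 99 groups of named members and subunit ratios, and 5 were found. Chance alone gives about 1 in 20 groups. Mrps35 was at 80.1 RPKM in off-dox tumor 4 (the others 30.5 to 37.3), and Mrpl51 was at 39.5 RPKM in the same tumor (the others 30.5 to 31.5). Mrpl40 was at 37.5 RPKM in plus-dox tumor 1 (the others 27.5 to 28.1). Mrpl43 was at 38.0 RPKM in no-dox tumor 4 (the others 42.2 to 43.1). The large-to-small ratio was 2.03 in no-dox tumor 4, where the other three were at 1.98.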

How the results depend on the processing

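Counts by the study's limits stayed at 0 in all 3 comparisons under every alternative, and subunit medians and ratios moved by less than the spread between tumors. In the main fit no member changed by 1.5-fold. The log2 fold change furthest from 0 was -0.55 (Mrps35, plus-dox against no-dox), so the 0 there follows from the fold limit whatever the p. The count of members at an adjusted p under 0.1 in off-dox against no-dox tumors, 3 beside 3.46% of all genes in either direction, did not hold. It was 17 with DESeq2 (10.8% of all genes with moderated fold changes and 11% without). It was 2 with RLE normalization (3.35% of genes) and 1 without a count filter (1.2%). It was 7 with at least 10 counts in every tumor (8.08%) and 0 with the 8 tumors alone (0.0175%). At an adjusted p under 0.05 it was 0, a limit for which no share of all genes is given here. Leaving out single tumors gave 0 to 12. It was 0 without any 1 no-dox tumor, plus-dox tumor 3 or 4, or off-dox tumor 2, 3 or 4 (at most 0.132% of genes). It was 2 without plus-dox tumor 1 (2.86% of genes), 6 without plus-dox tumor 2 (5.15%) and 12 without off-dox tumor 1 (10.1%). The count of all genes past the limit thus moved with these settings too. Without plus-dox tumor 2 and off-dox tumor 4 together, chosen after seeing the data, the member count was 5, where 7.31% of all genes passed. Over these alternatives the adjusted p ranged from 0.0013 to 0.218 for Mrps5, 0.00945 to 0.219 for Mrpl9 and 0.0303 to 0.238 for Mrpl10. The causes were not tested.

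The replicate block also gave 0 members and 0 genes. Tumors with the same number did not on average deviate together (mean r -0.088 over 12 pairs, 0.043 over 36 pairs with different numbers). Single pairs spread widely (r -0.45 to 0.57, and -0.68 to 0.67), so this check cannot show whether the numbers stand for a shared batch. Standard errors of members' log2 fold changes were 0.09 to 0.34 with 4 tumors a group.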
